A study of Homo sapiens with 6 samples.

Results

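Untreated SKOV3 cells of the WT/- clone were compared with untreated cells of the parental WT/HAQ line, gene by gene. SKOV3 is an established human ovarian cancer cell line. The parent has STING1 in 1 WT copy and 1 HAQ copy, where HAQ is a common haplotype with 3 amino acid changes, and the clone has kept the WT allele and lost the HAQ allele. The clone came from cells that received lentiviral Cas9 with a pair of guides flanking the STING1 coding sequence, were selected with puromycin and were then isolated by limiting dilution. It is a single clone, so the STING1 genotype and the other differences between a clone and its parent cannot be told apart. The 2 untreated libraries are part of 6, which cover WT/HAQ, WT/- and HAQ/- cells, each as an untreated control and after cGAMP. The cGAMP cells were permeabilized, given 10 μg/mL of cGAMP for 30 min and left to rest for 4 h. Of the 60498 genes in the deposited table, 15126 averaged 10 counts or more across the libraries, and 15078 of them had a ratio between the untreated WT/- and WT/HAQ libraries. The other 48 genes had 3 counts or fewer in both libraries and were given no ratio.

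STING1 is the adaptor on the endoplasmic reticulum that binds the cyclic dinucleotide cGAMP, the product of the DNA sensor cGAS. Bound STING1 recruits the kinase TBK1, which activates the transcription factor IRF3 and with it type I interferon, and it also activates NF-κB. NF-κB is a family of dimeric transcription factors held in the cytoplasm by inhibitory IκB proteins and released when those are degraded. Among its targets are cytokines, chemokines, adhesion molecules and its own inhibitors. Interferon-stimulated genes (ISGs) are switched on by the interferon receptor through STAT and IRF proteins. Cancer cells, ovarian ones included, often use parts of both programmes without any added ligand.

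The untreated libraries had nearly the same depth, with 17608467 counts for WT/HAQ and 17060710 for WT/-. Mitochondrial genes took 5.72% and 5.17% of the counts, and over the 6 libraries the totals ran from 12444822 to 17608467. Of 11 analysed genes that mark SKOV3 cells, 8 had a log2 ratio of WT/- over WT/HAQ below 0 without treatment, and the line test described below called 4 lower and 0 higher. ERBB2, the amplified receptor gene of the line, had 67741 normalised counts in WT/HAQ and 51707 in WT/- cells, and PAX8, a transcription factor of the Müllerian lineage, had 6751 and 9391. KRT19, by contrast, had 5629.5 and 364. Normalised counts are counts divided by the library's effective size (TMM method) and brought to a common size. The 18 markers of leukocytes, endothelium and fibroblasts summed to 486 counts in the WT/HAQ control and 598 in the WT/- control library. Scaled to depth, these sums were 27.6 and 35.05 CPM, and the highest was 40.6 CPM in the WT/- cGAMP library. In the WT/- control, 9 of the 18 were at 3 counts or fewer, and CD3D and MS4A1 were at 0 in every library.

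Each condition has 1 library, so the difference between the untreated lines has no replicate check and no p-value. Ratios carry 95% Wilson intervals, which cover counting error only. The cGAMP libraries of WT/- and WT/HAQ are a further pair of cultures of the same lines and share no library with the untreated pair, so they show which differences recurred, although under another treatment. A test of the line was also fitted over all 6 libraries with terms for line and treatment (edgeR quasi-likelihood F test, 2 residual degrees of freedom, Benjamini-Hochberg adjustment, called under 0.05). It takes the untreated and the cGAMP library of a line as its replicates. It therefore includes the untreated pair, and it measures the spread between libraries of 1 clone, not between clones. HAQ/- values are given beside some results and share the WT/HAQ control library with them.

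Between the untreated lines, 863 genes were at least 2-fold higher in WT/- cells, which is 5.72% of the genes with a ratio, and 642 were at least 2-fold lower (4.26%). The median log2 ratio of all genes was 0.00. At least 4-fold differences were found for 159 genes in the higher and 160 in the lower direction. Of the 863 higher genes, 431 were also at least 2-fold higher in WT/- cells after cGAMP, which is 49.9% of them and 41.6% of the 1037 genes that were higher in the cGAMP pair (6.86% of genes). Of the 642 lower genes, 330 were at least 2-fold lower after cGAMP as well, or 51.4% of them and 47.2% of the 699 lower in the cGAMP pair (4.62%). Direction alone recurred for 86.4% of the higher and 85.7% of the lower genes, and 25 genes of each set were past 2-fold the opposite way after cGAMP. Across the 15068 genes with both ratios, which are not independent, Pearson's r was 0.62 and Spearman's rho 0.58. With at least 200 counts over both untreated libraries, r was 0.79 over 10865 genes.

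**Figure D1:**
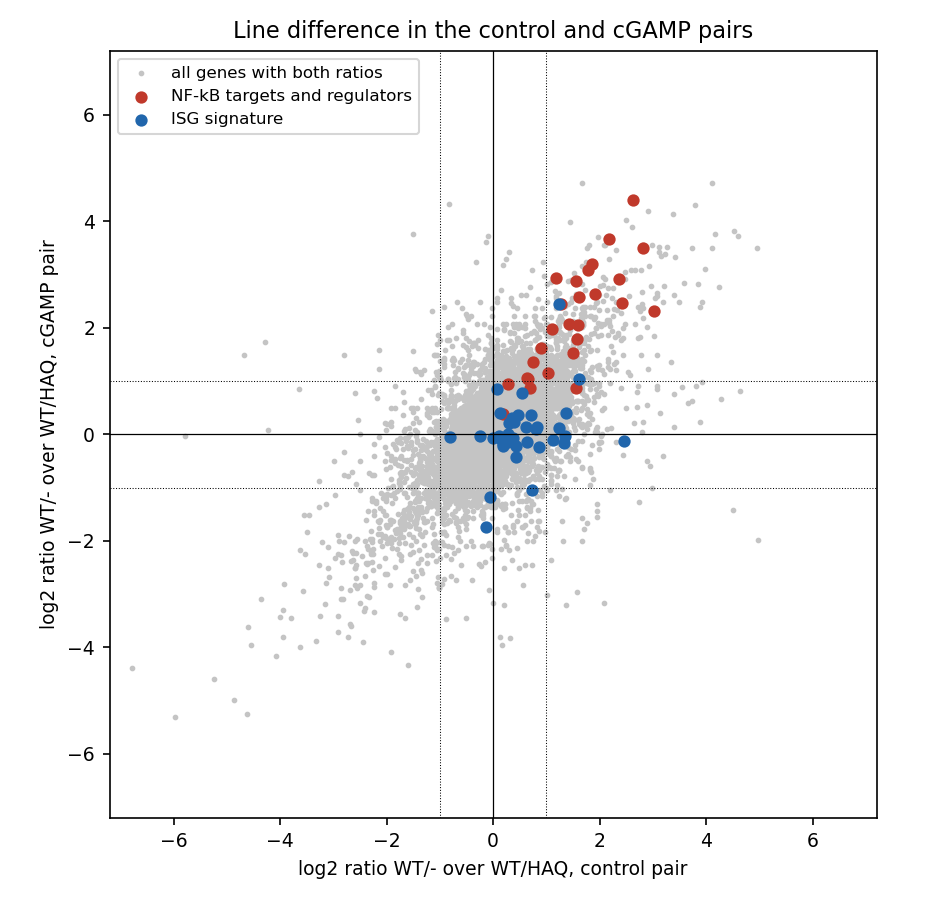
Each point is a gene, with its log2 ratio of WT/- over WT/HAQ in the untreated libraries on the x axis and in the cGAMP libraries on the y axis; dotted lines mark 2-fold. The NF-κB list (red) lies in the upper right, with 19 of its 27 genes past 2-fold in both pairs, while the ISG signature (blue) spreads along the x axis with a median of 0.41 in the control pair and -0.05 in the cGAMP pair.

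The line test called 755 genes higher (4.99% of the 15126) and 577 lower (3.81%) in WT/- cells. Of the genes at least 2-fold apart without treatment, it called 319 of the 863 higher and 241 of the 642 lower. These calls rest on both WT/- libraries, since the edgeR fit called 0 genes in either direction without the WT/- control library and 0 without the WT/- cGAMP library, where the lone WT/- library is assumed to vary like the others. At an unadjusted p under 0.05, those fits had 1264 higher and 990 lower genes without the control library, and 1298 and 1129 without the cGAMP library. Calls numbered 218 and 115 without the WT/HAQ control, 115 and 99 without the WT/HAQ cGAMP, 1544 and 1105 without the HAQ/- control, and 1540 and 1092 without the HAQ/- cGAMP library. Below, "called" means called by this test with all 6 libraries, and counts of list members past 2-fold stand against the 5.72% of all genes that were higher and the 4.26% that were lower.

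STING1 (ENSG00000184584, chromosome 5, 139475533 to 139482935, minus strand, GRCh38), the edited gene, had 669 normalised counts in untreated WT/HAQ and 353 in untreated WT/- cells. The log2 ratio was -0.92 (interval -1.10 to -0.75), just short of 2-fold. After cGAMP, the level was 1780.3 in WT/HAQ and 553 in WT/- cells, a log2 ratio of -1.69, and the line test called STING1 lower (edgeR adjusted p = 0.025). Its nearest analysed neighbours were close to the parental level. ECSCR, on one side at a distance of 12.8 kb, had a log2 ratio of -0.24, and UBE2D2, on the other side at 43.5 kb, had -0.11. Of the 23 analysed genes within 1 Mb, 0 were 2-fold lower and 3 were 2-fold higher, and their median was -0.15. The 3 higher ones were SPATA24 (1.08), CXXC5 (1.11) and PSD2 (1.40). CXXC5 codes for a zinc finger protein and was the most abundant of them, with 759 normalised counts in WT/HAQ and 1644 in WT/- cells, and the line test did not call it (edgeR adjusted p = 0.091).

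Among the gene lists, the targets and regulators of NF-κB stood out most. This list was chosen with earlier results of these data known. Of 27 analysed members of this list, 20 were at least 2-fold higher in untreated WT/- cells and 0 were lower, against the 5.72% of all genes that were higher. All 27 had a log2 ratio above 0, from 0.19 to 3.03 with a median of 1.55. In the cGAMP pair 23 members were at least 2-fold higher with a median of 2.07, and 19 of the 20 passed 2-fold there too. By the line test, 24 members were higher and 0 lower.

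IL6, the cytokine of the acute phase response, was the furthest apart of the list. It had 851 normalised counts in untreated WT/HAQ and 6939.5 in untreated WT/- cells, and 1988 and 9924 after cGAMP. Both WT/- libraries lay above both WT/HAQ libraries, with a log2 ratio of 3.03 (2.93 to 3.12) without treatment (edgeR adjusted p = 0.016). TNF, the cytokine that itself drives NF-κB through its receptor, had 661 and 4620.4 normalised counts without treatment and 178 and 2010.1 after cGAMP, again with no overlap of the lines. Its untreated log2 ratio was 2.81 (2.69 to 2.92; edgeR adjusted p = 0.0046). CCL20, which draws cells bearing the receptor CCR6, had 221 against 1372 without treatment, a log2 ratio of 2.63, and 18.1 against 381 after cGAMP. In this gene, the WT/- library after cGAMP was above the WT/HAQ control as well.

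The remaining ligands of the list followed the same direction. IL1B and IL1A, which code for interleukin 1β and 1α, had log2 ratios of 2.35 and 1.92 without treatment. LTB, the membrane partner of lymphotoxin, had 2.41 at lower counts (25 in WT/HAQ and 126 in WT/- cells). The neutrophil chemokines CXCL1, CXCL2, CXCL3 and CXCL8 had 1.28, 1.56, 1.79 and 1.18; the first 3 of these genes are close in sequence, and reads may be split between them. CXCL8 was the most abundant cytokine of the list, at 20328 normalised counts in WT/HAQ and 46002 in WT/- cells. ICAM1, the adhesion molecule to which leukocyte integrins bind, had 1431 and 5209, a log2 ratio of 1.86.

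Genes for inhibitors of the pathway were higher beside those for its ligands. NFKBIA, the gene of IκBα, had 2346 normalised counts in WT/HAQ and 6961 in WT/- cells, a log2 ratio of 1.57 (edgeR adjusted p = 0.0078). NFKBIE, which codes for a further IκB, had a ratio of 1.60. TNFAIP3, the gene of the ubiquitin-editing enzyme A20 that ends NF-κB signalling, had 10044 and 30554, a log2 ratio of 1.61. The adaptors and survival genes TRAF1 and BIRC3 had 2.17 and 1.10.

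The subunits themselves differed less. NFKB2 and NFKB1, precursors of p52 and p50, had log2 ratios of 0.90 and 0.65, RELB had 0.63 and REL had 0.74. RELA, the main activating subunit, had 0.19, with 3212 normalised counts in WT/HAQ and 3665 in WT/- cells, and was not called (edgeR adjusted p = 0.13). The 3 members that the line test did not call were REL, RELA and CXCL5. Beyond IL6, TNF and CCL20, the members of this list were named after their values were seen, and so were some further genes below that are under 2-fold. IKBKE, the kinase IKKε that is related to TBK1 and stands in the cGAS-STING list, had 74.2 against 330.4, a log2 ratio of 2.15 without and 2.76 with cGAMP (edgeR adjusted p = 0.0072).

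In the untreated HAQ/- clone, which shares the WT/HAQ control, the same list had a median log2 ratio of -1.93 against the parent, with 22 members at least 2-fold lower and 0 higher. IL6 had 159.7 normalised counts in HAQ/- cells, TNF had 154 and TNFAIP3 had 1207. By these medians the parental line lay between the clones. Whether the clones differ by genotype or by clone cannot be told apart here.

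**Figure D2:**
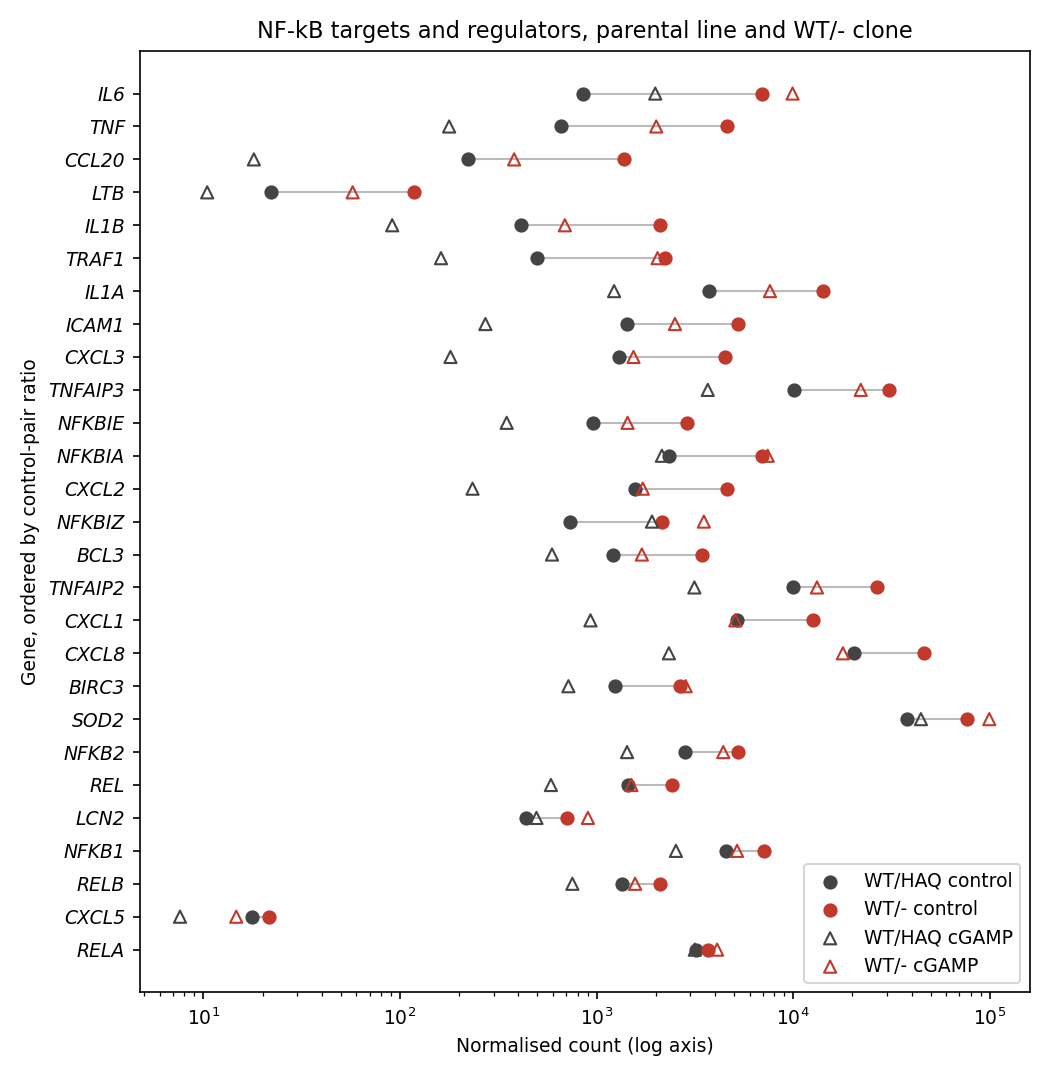
Normalised counts (log x axis) of the 27 NF-κB targets and regulators, 1 row a gene, in the untreated (circles) and cGAMP (triangles) libraries of WT/HAQ (black) and WT/- (red); grey lines join the untreated pair. Every red circle lies to the right of its black circle, from a log2 distance of 0.19 to one of 3.03 for IL6.

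To show where the NF-κB family could bind in these genes, promoters of RefSeq (GRCh38.p14) were searched for the κB consensus on both strands, in the 250 bases before the start of transcription. Of the list's 27 members, 25 had a promoter in the table, and 14 of these (56.0%) held a match, against 5.1% of all 27305 promoters and 6.1% of the 11182 promoters of analysed genes. The list was drawn up as NF-κB targets, so matches are part of what it is, and its members at least 2-fold higher held one in 10 of 19 promoters (52.6%). Among genes at least 2-fold higher in untreated WT/- cells, 61 of 543 promoters (11.2%) held a match, and among those lower, 24 of 403 (6.0%). A match describes letters and is not evidence of binding. The last 120 bases before the start are shown for the 5 members with the highest ratio whose match lies there, with the matched letters in capitals and 5′ to 3′ on the gene's strand. They are IL6 (chr7:22727080-22727199, plus strand), CCL20 (chr2:227813722-227813841, plus strand), LTB (chr6:31582426-31582545, minus strand), CXCL3 (chr4:74038690-74038809, minus strand) and TNFAIP3 (chr6:137867139-137867258, plus strand).
IL6: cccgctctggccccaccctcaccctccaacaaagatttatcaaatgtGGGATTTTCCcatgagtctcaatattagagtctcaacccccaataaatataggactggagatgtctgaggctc
CCL20: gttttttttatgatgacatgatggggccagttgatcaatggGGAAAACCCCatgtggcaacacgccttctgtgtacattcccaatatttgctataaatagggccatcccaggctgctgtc
LTB: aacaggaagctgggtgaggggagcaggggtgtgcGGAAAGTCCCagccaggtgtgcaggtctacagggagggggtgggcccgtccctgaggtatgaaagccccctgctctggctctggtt
CXCL3: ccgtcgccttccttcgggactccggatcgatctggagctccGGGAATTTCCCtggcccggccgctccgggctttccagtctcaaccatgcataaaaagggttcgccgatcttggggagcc
TNFAIP3: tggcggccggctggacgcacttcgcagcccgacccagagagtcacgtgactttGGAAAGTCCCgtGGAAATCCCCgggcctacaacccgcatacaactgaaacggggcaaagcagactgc
In IL6, CCL20, LTB and CXCL3 the match begins 73, 79, 86 and 79 bases before the start. In CXCL3 the capitals are overlapping matches, and TNFAIP3 carries a pair of separate matches, the first of them 67 bases before its start.

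Further cytokines and growth factors of blood cells were higher too. Of 14 analysed interleukins and colony-stimulating factors, 9 were at least 2-fold higher in untreated WT/- cells and 0 lower, with a median of 1.44. In the cGAMP pair 7 of the 9 recurred, and the line test called 8. Without the 3 genes that the NF-κB list also holds, 6 of 11 were higher with a median of 1.11. CSF2, the granulocyte-macrophage colony-stimulating factor, had 43 counts in the WT/HAQ and 304 in the WT/- control library, a log2 ratio of 2.90 (2.44 to 3.36). CSF1, the growth factor of macrophages, had 5517 normalised counts in WT/HAQ and 25871 in WT/- cells and a log2 ratio of 2.23. IL23A, at 9 and 34 counts, was 3.99-fold higher without treatment but had -0.15 in the cGAMP pair and was not called (edgeR adjusted p = 0.32). LIF and IL32 had 1.20 and 1.69, and both were called (edgeR adjusted p = 0.018 and 0.0078).

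Receptors and sensors of the innate immune system formed a wider group. The study's list of pattern recognition receptor pathway genes, drawn up from pathway databases, had 248 analysed members. Of the 245 with a ratio, 39 were at least 2-fold higher and 2 lower in untreated WT/- cells, with a median of 0.19, and 26 and 1 of these recurred after cGAMP. Without the 15 members of the NF-κB list, 28 of the 230 with a ratio were higher and 2 lower, with a median of 0.16, and the line test called 25 higher and 4 lower. The highest of all was CLEC4E, a C-type lectin receptor, with 1 count in WT/HAQ and 69 in WT/- cells. TLR4, the receptor of lipopolysaccharide, had 2 and 32 counts, a log2 ratio of 4.08 (2.16 to 6.0). CD40, the receptor by which T cells license antigen-presenting cells, was more abundant, at 239.5 and 1206 normalised counts (log2 ratio 2.33, edgeR adjusted p = 0.0033). The lowest ratio was that of the kinase SYK, at 70.7 and 17.7 (log2 ratio -2.00, edgeR adjusted p = 0.11).

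The ISG signature had different medians in the untreated and cGAMP pairs, a difference that was not tested. Of the 38 genes of the study's ISG signature, 8 were at least 2-fold higher without treatment and 0 lower, and 33 were above 0 with a median of 0.41. In the cGAMP pair, 2 were at least 2-fold higher, both of them among the 8, and 3 lower, with a median of -0.05. The line test, which fits 1 line difference over both pairs and does not compare the pairs, called 1 of the 38. This was CASP1, the protease that activates interleukin 1β (edgeR adjusted p = 0.0497). CASP1 had 22 and 49 counts without and 30 and 117 with cGAMP. RTP4, the highest of the signature, had 5 counts in WT/HAQ and 26 in WT/- cells (log2 ratio 2.46, 1.12 to 3.79), against -0.13 in the cGAMP pair. GBP4, a guanylate-binding protein, had 1.62 at 22 and 64 counts, and EPSTI1 had 1.37 at 68 and 167. At the low end, ISG20, an exonuclease, had -0.81, PNPT1 had -0.24 and RSAD2, the antiviral protein viperin, had -0.14 without treatment and -1.73 with cGAMP.

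Of 19 analysed RNA sensors and their adaptors, many of them interferon-inducible themselves, 7 were at least 2-fold higher in untreated WT/- cells and 0 lower, with a median of 0.51, while the cGAMP pair had 0 past 2-fold in either direction and a median of 0.04. The difference between the pairs was not tested here either. OAS2 and OAS1, which make the activator of RNase L, had log2 ratios of 2.43 and 1.98 without treatment and -0.39 and -0.16 with cGAMP. OAS2 had 50.4 normalised counts in untreated WT/HAQ and 272 in untreated WT/- cells, against 6419 and 4889.7 after cGAMP. TLR3, the endosomal receptor of double-stranded RNA, had 1.63 at 13 and 38 counts. The line test called 0 of the 19 (edgeR, adjusted). Among 26 interferon receptors and JAK, STAT, IRF and SOCS genes, 4 were higher and 1 lower, of which 1 and 0 recurred, with medians of 0.53 and 0.28 in the untreated and cGAMP pairs. SOCS3, an inhibitor of cytokine receptor signalling, had 341 and 1606 normalised counts without treatment (log2 ratio 2.23) and 2.55 in the cGAMP pair (edgeR adjusted p = 0.0051). IRF9, the DNA-binding subunit of the complex that binds interferon response elements, had ratios of 1.53 and 0.07 in the untreated and cGAMP pairs, whereas IRF1 had 1.76 and 0.97 and was called (edgeR adjusted p = 0.036).

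ISRE cores, written GAAA, any 2 bases and GAAA on either strand, were found before the start of 15 of the 31 signature genes with a promoter in the table (48.4%), against 3.1% of all promoters and 1 of the 25 NF-κB list promoters (4.0%). RTP4 (chr3:187368265-187368384, plus strand) and EPSTI1 (chr13:42992242-42992361, minus strand) are shown as the highest signature genes with a match in the last 120 bases, in capitals.
RTP4: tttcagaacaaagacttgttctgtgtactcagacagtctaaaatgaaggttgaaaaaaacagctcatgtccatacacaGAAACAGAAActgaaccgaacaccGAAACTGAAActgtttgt
EPSTI1: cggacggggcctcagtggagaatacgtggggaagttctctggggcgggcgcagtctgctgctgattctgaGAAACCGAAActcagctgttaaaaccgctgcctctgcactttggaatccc
The first match begins 42 bases before the start in RTP4 and 50 bases in EPSTI1.

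Of 21 analysed genes of MHC class I presentation, 0 were past 2-fold in either direction and the median was 0.22, with 19 above 0. ERAP2, a peptidase that trims peptides for class I molecules, was the member the line test called (0.54, edgeR adjusted p = 0.042). Of 4 analysed genes of MHC class II presentation, 4 were above 0 without treatment and 2 after cGAMP, with medians of 0.71 and 0.27, and the line test called 2. CTSS, the protease cathepsin S, was the one past 2-fold, with 1.71 and 1.76 (edgeR adjusted p = 0.0046). The cGAS-STING pathway list of 31 genes had a median of 0.04, and IKBKE was its member past 2-fold.

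Secreted proteases and matrix genes differed widely, in both directions. In the list of the plasminogen system and metalloproteases, 6 of 24 analysed genes were at least 2-fold higher and 2 lower in untreated WT/- cells, with a median of 0.41, and all 8 passed 2-fold the same way in the cGAMP pair. MMP1, interstitial collagenase, had 1491 normalised counts in untreated WT/HAQ and 12916 in untreated WT/- cells, and 1218 and 13086 after cGAMP. The log2 ratio was 3.11 (3.04 to 3.19) without treatment and 3.43 with cGAMP (edgeR adjusted p = 0.0023). MMP7, matrilysin, had 163 and 1233 and a ratio of 2.92. MMP13, a further collagenase, had 15 and 64 counts and a ratio of 2.17. In the opposite direction, MMP2, gelatinase A, had 1504 normalised counts in WT/HAQ and 409.7 in WT/- cells (log2 ratio -1.88, edgeR adjusted p = 0.0039), and MMP11 had -1.27 at 33 and 13 counts.

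The higher metalloproteases were neighbours in the genome. MMP7, MMP10, MMP1, MMP3 and MMP13, which is every analysed gene between MMP7 and MMP13 on chromosome 11 (102520508 to 102955732), had untreated log2 ratios of 2.92, 1.37, 3.11, 1.66 and 2.17. The cGAMP pair gave 3.16, 1.68, 3.43, 3.15 and 3.30 with counts under 3 set to 3. MMP3 rests there on 2 counts in WT/HAQ cells, and its ratio without that floor was 3.74 (1.79 to 5.69). MMP2 lies elsewhere, on chromosome 16. The untreated HAQ/- clone had 0.78, 1.45, 1.18, 0.30 and 0.66 against the same WT/HAQ library. This interval was looked at after the values had been seen.

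Among matrix glycoproteins and basement membrane genes, 5 of 33 were at least 2-fold higher and 2 lower, and 2 of the 5 and both lower ones recurred after cGAMP. FBLN1 and FBLN2, fibulins that bind elastic fibres and basement membranes, were the lower ones, with log2 ratios of -2.58 and -2.08 (edgeR adjusted p = 0.0026 and 0.0023). FBLN2 had 1914 normalised counts in WT/HAQ and 453 in WT/- cells. COL4A1, a chain of basement membrane collagen, was higher at 13163 and 27711 normalised counts, with a ratio of 1.07 (edgeR adjusted p = 0.011). THBS2, a thrombospondin, had 7 and 70 counts without treatment, a ratio of 3.40, but 0.13 in the cGAMP pair. Integrins, the receptors for such matrix, had 4 of 16 members higher and 2 lower, of which 3 and 2 recurred. ITGB3, the β3 chain, had 544 and 2284 (log2 ratio 2.07, edgeR adjusted p = 0.0047), and ITGA4, the α4 chain, had 2.82 at 12 and 80 counts. ITGA6, the laminin-binding α6 chain, was lower at 7307 and 2755 (log2 ratio -1.41, edgeR adjusted p = 0.0078), as was ITGA7 with -2.40.

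Complement genes were at least 2-fold higher for 7 of 19 and lower for 2, and 4 of the 7 and both lower ones recurred after cGAMP. C3, the central component, had 2182 normalised counts in WT/HAQ and 11817 in WT/- cells without treatment and 3153 and 12508 after cGAMP. Its untreated log2 ratio was 2.44 (2.37 to 2.50; edgeR adjusted p = 0.0062). The proteases C1S and C1R, which start the classical cascade, had ratios of 2.16 and 1.66. CD55, which protects cells from complement, was lower at 2850.5 and 1342 normalised counts (-1.09, edgeR adjusted p = 0.017), as was CFD (-1.27).

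Of 31 analysed epithelial genes, 1 was at least 2-fold higher and 2 lower in untreated WT/- cells. With medians of -0.17 and -0.27, 21 were below 0 without treatment and 22 after cGAMP, and the line test called 2 higher and 5 lower. KRT19, a keratin of simple epithelia, was the extreme case. It had 5629.5 normalised counts in untreated WT/HAQ and 364 in untreated WT/- cells, and 3605 and 369 after cGAMP. The lines did not overlap, and the untreated log2 ratio was -3.95 (-4.10 to -3.80; edgeR adjusted p = 0.0026). The untreated HAQ/- clone, with 414, was as far below the parent. KRT8 and KRT18, further keratins of simple epithelia, had log2 ratios of -0.15 and -0.17. ESRP2, an epithelial splicing regulator, was lower (-1.99), and ELF3, an epithelial transcription factor, was higher at 666 and 2363 normalised counts (1.83, edgeR adjusted p = 0.014).

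Mesenchymal genes split too, with 4 of 32 at least 2-fold higher and 3 lower, all 7 of which passed 2-fold the same way after cGAMP. FN1, fibronectin, had 5822 and 18306 normalised counts and a log2 ratio of 1.65, COL1A2 had 1.35 and POSTN, periostin, had 3.85 (2.24 to 5.46) at 3 and 41 counts. COL5A2 (-2.14), the transcription factor PRRX1 (-1.92) and MMP2 were the lower ones. VIM, vimentin, had 80299 and 47792 normalised counts, a ratio of -0.75 that the line test called (edgeR adjusted p = 0.012). Of 21 genes of the ovarian and Müllerian lineage, 0 were 2-fold higher and 4 lower. ESR1, the oestrogen receptor, was the most abundant of these at 1019 and 465 (log2 ratio -1.13, edgeR adjusted p = 0.0078). MUC16, the CA125 antigen, had 33 and 7 counts (-2.16), KLK10 had 17 and 3 (-2.42, -4.10 to -0.75) and WT1 had 11 and 2 (-2.38, -4.39 to -0.37).

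Among ERBB receptors and EGF family ligands, 3 of 11 genes were at least 2-fold lower in untreated WT/- cells, 0 were higher, and the 3 passed 2-fold again after cGAMP. The ligands epiregulin and amphiregulin, EREG and AREG, had 482 and 293 normalised counts in WT/HAQ and 80.3 and 90.5 in WT/- cells. Their log2 ratios were -2.59 and -1.70 (edgeR adjusted p = 0.0029 and 0.028). ERBB4 had -1.59 and ERBB2, the amplified receptor, -0.39 (edgeR adjusted p = 0.03). Of 18 genes of ERK pathway output, 1 was at least 2-fold lower and 1 higher, with a median of 0.01. The lower one was DUSP4, a phosphatase induced by ERK, at 3839.6 and 1004 (-1.94, edgeR adjusted p = 0.0046). The higher one had 1.04 and did not pass 2-fold the same way after cGAMP. Immediate-early genes, whose median was 0.65, were on the higher side, with 3 of 24 past 2-fold and 8 called higher. ZFP36, which destabilizes cytokine mRNAs, was the furthest of these (1.83).

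Of 33 genes of the unfolded protein and integrated stress response, 6 were at least 2-fold lower and 1 higher in untreated WT/- cells, with a median of -0.01 and 16 of 33 above 0. After cGAMP 3 of the 6 and the 1 recurred, and the line test called 7 lower and 2 higher. The 3 furthest members below were PHGDH, PSAT1 and ASNS, enzymes of serine and asparagine synthesis. PHGDH, the first enzyme of serine synthesis, had 1043 normalised counts in untreated WT/HAQ and 123 in untreated WT/- cells, and 1177 and 183 after cGAMP. Its log2 ratio was -3.08 (-3.34 to -2.82; edgeR adjusted p = 0.0023). PSAT1, the next enzyme, had 3347 and 641, a ratio of -2.38 (edgeR adjusted p = 0.0023). ASNS, asparagine synthetase, had 1188 and 229.6, a ratio of -2.37 (edgeR adjusted p = 0.0026).

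The enzymes MTHFD2 and SHMT2 of mitochondrial folate metabolism had -1.37 and -0.79, and both were called lower. DDIT3, the stress-induced transcription factor CHOP, was the member that was higher (892 and 2141, ratio 1.26, edgeR adjusted p = 0.012). In the untreated HAQ/- clone, PHGDH had 603 normalised counts, PSAT1 3087 and ASNS 960.5.

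Genes of sterol and fatty acid synthesis were a little higher and nearly all on the same side. Of 35 genes, 30 were above 0 without treatment and 29 after cGAMP, with medians of 0.41 and 0.52, and 3 were at least 2-fold higher. By the line test, 13 were higher and 0 lower. LSS, lanosterol synthase, had 1353 and 3367 normalised counts (log2 ratio 1.32, edgeR adjusted p = 0.012), HSD17B7 had 1.33 and the sterol carrier STARD4 had 1.08.

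Genes of hypoxia and glycolysis were lower for 5 of 27 and higher for 1, of which 4 and 0 recurred. ANGPTL4, an inhibitor of lipoprotein lipase, had 413 normalised counts in untreated WT/HAQ and 16.8 in untreated WT/- cells, and 3302 and 86.8 after cGAMP, so that the ratio was -4.62 without and -5.25 with treatment (edgeR adjusted p = 0.014). CA12, a membrane carbonic anhydrase, had -1.80, the glycolytic enzyme HK2 had -1.03 and LDHA, lactate dehydrogenase, had -0.73.

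S phase genes were lower as a set by small amounts. All 30 members had a log2 ratio below 0 in the untreated pair and all 30 in the cGAMP pair, with medians of -0.47 and -0.53, and 0 passed 2-fold without treatment. The line test called 10 lower and 0 higher. RRM2, a subunit of ribonucleotide reductase, had 1273 and 662 normalised counts (log2 ratio -0.94, edgeR adjusted p = 0.013), and MCM5, a subunit of the replicative helicase, had 817 and 446 (-0.87, edgeR adjusted p = 0.011). G2 and M phase genes, also 30, had a median of -0.20, with 25 below 0 and 1 called in each direction. Fewer cells in S phase and less of these RNAs per cell cannot be told apart in bulk RNA.

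Of 16 genes of the BCL2 family, 3 were at least 2-fold higher, 0 were lower and all 3 recurred after cGAMP. The line test called 1 of the 16 higher and 0 lower. Among 25 death receptors, their ligands and caspases, 4 were higher and 1 lower, of which 2 and 0 recurred. BBC3 and BMF, which code for the pro-apoptotic proteins PUMA and BMF, had 2.21 and 2.26. TNFSF10, the death ligand TRAIL, had 256 and 925 normalised counts (1.85, edgeR adjusted p = 0.03).

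**Figure D3:**
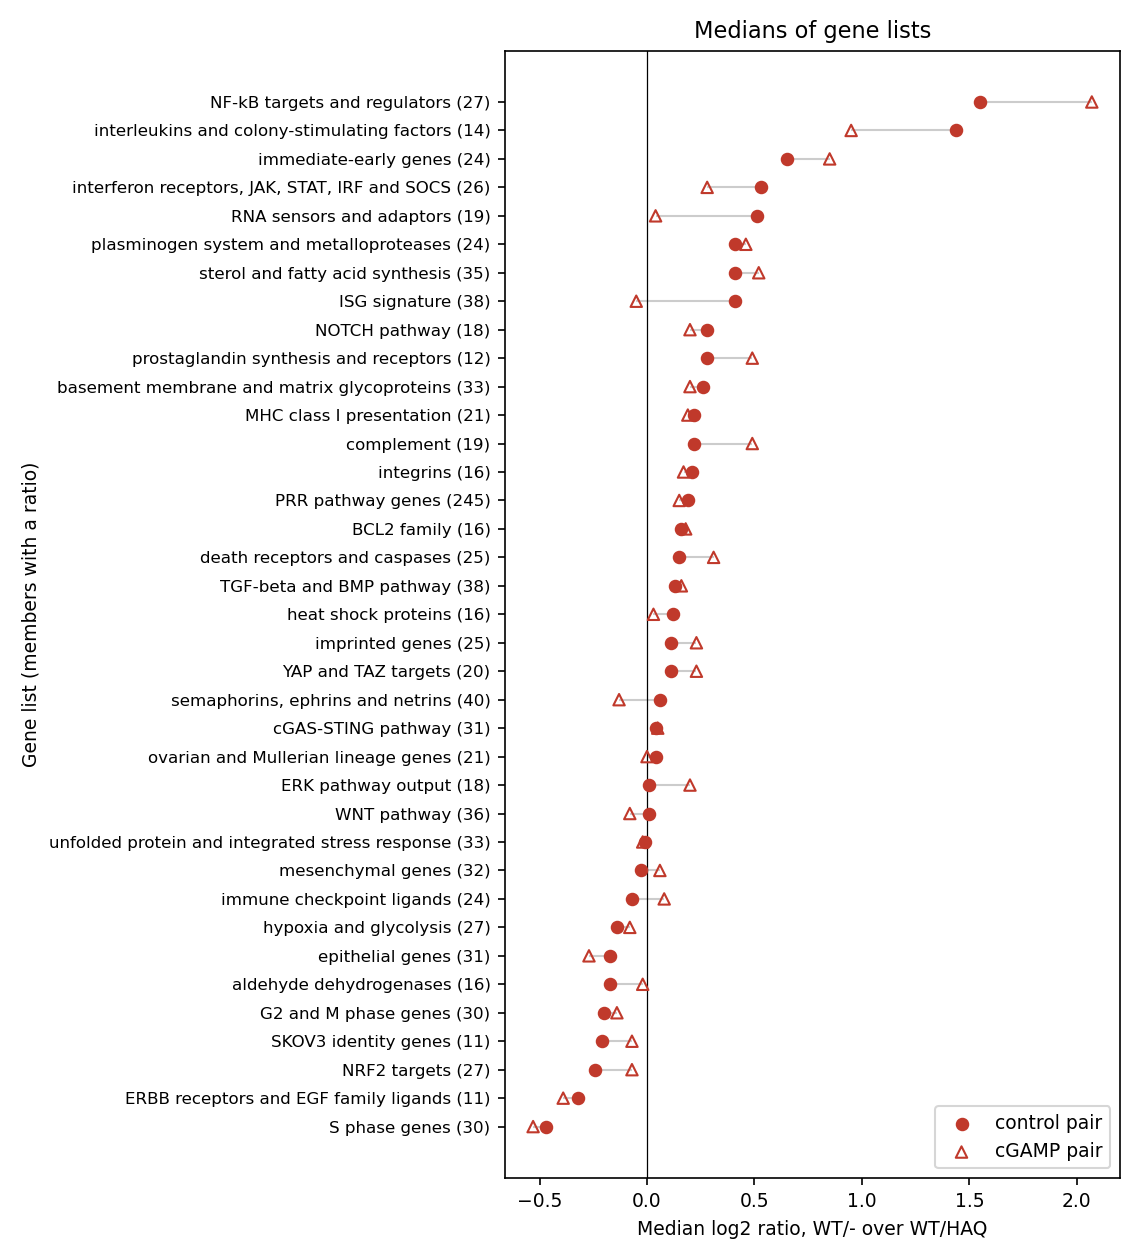
Median log2 ratio of WT/- over WT/HAQ for gene lists with at least 10 members that have a ratio, in the untreated (circles) and the cGAMP pair (triangles), with the number of members in brackets. The list of p53 targets and CDK inhibitors (26 members, medians of 0.16 and 0.33) is not drawn. NF-κB targets lie furthest to the right (1.55 and 2.07) and S phase genes furthest to the left (-0.47 and -0.53), and the ISG signature and the RNA sensors are higher in the untreated pair than in the cGAMP pair.

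At the level of single genes, the 12 protein-coding genes with the lowest and the 12 with the highest untreated ratio were taken among 11585 with at least 50 counts in either library. Of the 12 lowest, 11 were at least 2-fold lower after cGAMP and the line test called 11. The exception was TBC1D3D. RXFP1, the relaxin receptor, had 348 counts in the WT/HAQ and 3 in the WT/- control library, a log2 ratio of -6.78 (-8.34 to -5.22), and 619 and 21 counts after cGAMP. It was also nearly absent from HAQ/- cells, with 0 counts without treatment. KCNK15, a potassium channel gene, had 198 and 2 counts without treatment and 166 and 3 after cGAMP, and a ratio of -6.55 (-8.43 to -4.68). HCLS1, a cortactin relative of blood cells, had 239 and 6 counts (-5.24) and 6 in untreated HAQ/- cells.

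MAP6, VWA5A and DIRAS1 had 92, 77 and 74 counts in the WT/HAQ control and 1 count each in the WT/- control library, with ratios of -6.45 (-8.96 to -3.93), -6.19 (-8.70 to -3.67) and -6.13 (-8.65 to -3.62). C14orf132 had 372 and 21 counts (log2 ratio -4.07). ABCG1, a cholesterol exporter, had 202 and 12 (-3.99), and MYEF2, a transcriptional repressor, had 387 and 24 (-3.93). ANGPTL4 and KRT19 complete the set.

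Of the 12 highest genes, 8 were at least 2-fold higher after cGAMP and the line test called 8. CD69, an early activation marker of lymphocytes, had 6 and 176 counts in the untreated WT/HAQ and WT/- libraries and 0 and 24 after cGAMP, a log2 ratio of 4.95 (3.81 to 6.10; edgeR adjusted p = 0.013). SRGN, the proteoglycan serglycin, had 15 and 244 without treatment and 8 and 149 with it (4.10, edgeR adjusted p = 0.0077). In both genes the lines did not overlap. PLVAP, a gene of endothelial diaphragms, had 6 and 89 counts (3.97) without treatment and 13 and 79 after cGAMP. In the WT/HAQ control library, the endothelial markers PECAM1, VWF, CDH5 and KDR had 7, 3, 1 and 54 counts. They had 19, 13, 10 and 61 in the WT/- control library. After cGAMP they had 14, 2, 0 and 37 in WT/HAQ and 12, 9, 1 and 61 in WT/- cells. The part of another cell type in this was not tested.

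ARHGAP31, a GTPase-activating protein, had 15 and 210 counts (3.89), and COL16A1, a fibril-associated collagen, had 2 and 54 (4.83, 2.94 to 6.73). CLEC4E, already described, had a ratio of 6.19 (3.67 to 8.70). TENM4, a teneurin, had 0 counts in the WT/HAQ and 51 in the WT/- control library, and 40 counts in untreated HAQ/- cells. The lower counting limit of its log2 ratio, from the counts as they are, was 3.81. With the parent set to 3 counts, the ratio was 4.17. The serpins SERPINB3 and SERPINB4, close copies between which reads may be split, had 2 and 3 counts in WT/HAQ and 71 and 65 in WT/- cells. Their ratios were 5.23 (3.34 to 7.12) and 4.52 (2.93 to 6.10), and the cGAMP pair gave 0.81 and 3.81.

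The keratins KRT6A and KRT6B, made by stressed or stratified epithelia and also near copies of each other, were at their highest in the untreated WT/- library. KRT6A had 10 and 216 counts without treatment but 34 and 9 after cGAMP, and KRT6B had 2 and 56, then 1 and 0. The line test called neither (edgeR adjusted p = 0.36 and 0.11). TBC1D3H and TBC1D3D belong to a cluster of near-identical genes on chromosome 17, and their counts are uncertain. TBC1D3H had 1 and 89 counts without and 94 and 17 with cGAMP, and TBC1D3D had 59 and 0, then 20 and 15.

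**Figure D4:**
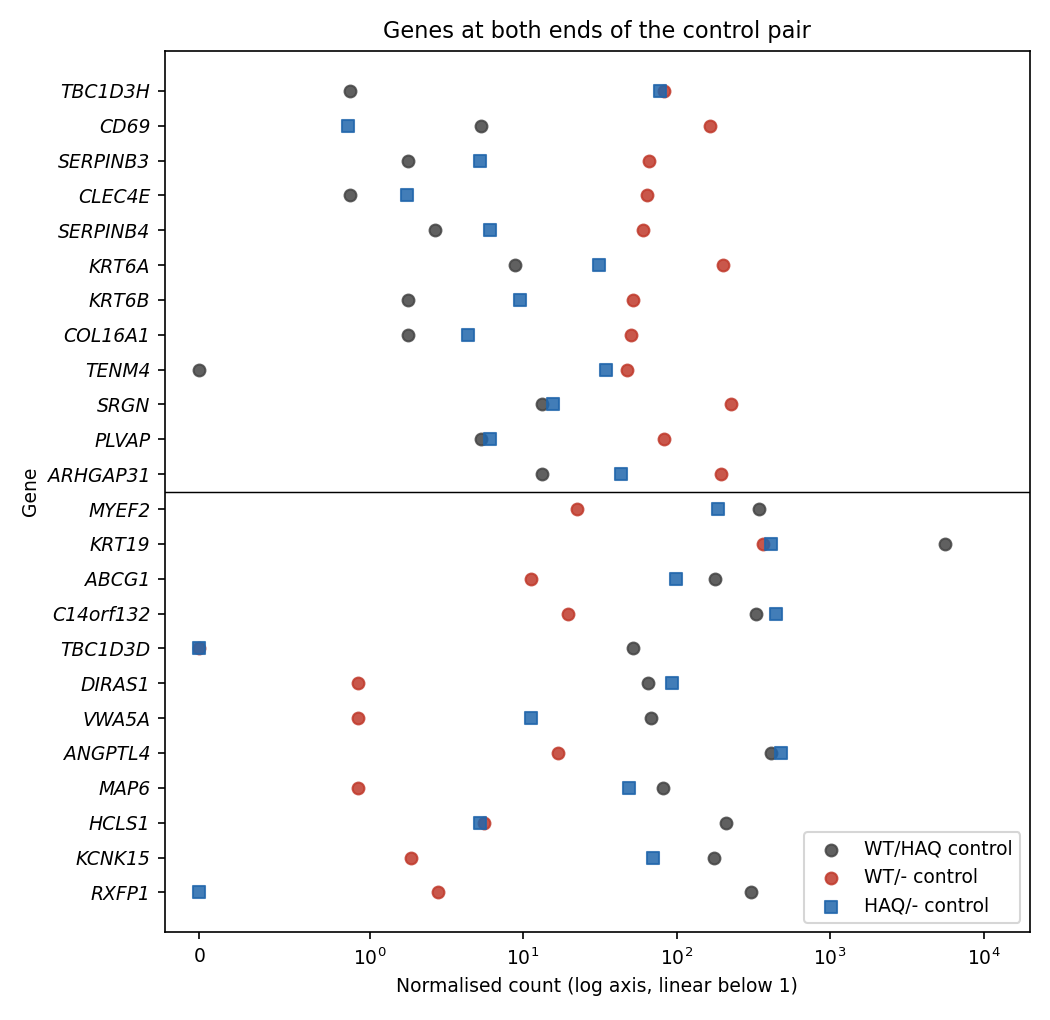
Normalised counts (log x axis, linear below 1) of the 12 highest (above the line) and 12 lowest (below it) protein-coding genes of the untreated comparison, in the control libraries of WT/HAQ (black), WT/- (red) and HAQ/- (blue squares). KRT19, HCLS1, RXFP1 and TBC1D3D lie near the WT/- level in HAQ/- cells too, while ANGPTL4, DIRAS1 and C14orf132 lie near the parental level there.

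The ratios also varied with position along chromosomes. Chromosome 13 had the highest median, 0.27 over 264 genes, and 74.6% of its genes were above 0. The cGAMP pair gave 0.35 and 83.0% for the same chromosome, and the untreated HAQ/- clone had a median of -0.08. Chromosome 7 followed with 0.13 (723 genes) and 0.18 after cGAMP. The lowest medians were -0.16 on chromosome 18 (215 genes) and -0.14 on chromosome 14 (495 genes).

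In blocks of 50 neighbouring analysed genes, of which there were 287, the median of a block had an SD of 0.13, and the untreated and cGAMP values correlated with r = 0.74 across blocks. All 5 blocks of chromosome 13 lay between 0.24 and 0.32 and above the 95th percentile of blocks (0.23). The highest blocks were adjacent, on the long arm of chromosome 1 (GRCh38). The first, from 197504748 to 205022822, had a median of 0.41 and 0.34 after cGAMP, and 40 of its 50 genes were above 0. The second, from 179099330 to 197201293, had 0.39 and 0.33, with 43 of 50 above 0. In HAQ/- cells these blocks had 0.05 and -0.02. The lowest blocks were the first of chromosome 18, from 116842 to 14132490, with -0.37 and -0.27 after cGAMP, and the first of chromosome 8, from 213186 to 17413528, with -0.35 and -0.10. The chromosome 18 block was low in HAQ/- cells as well, at -0.36. DNA copy number was not measured, so its part in these differences was not tested.

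**Figure D5:**
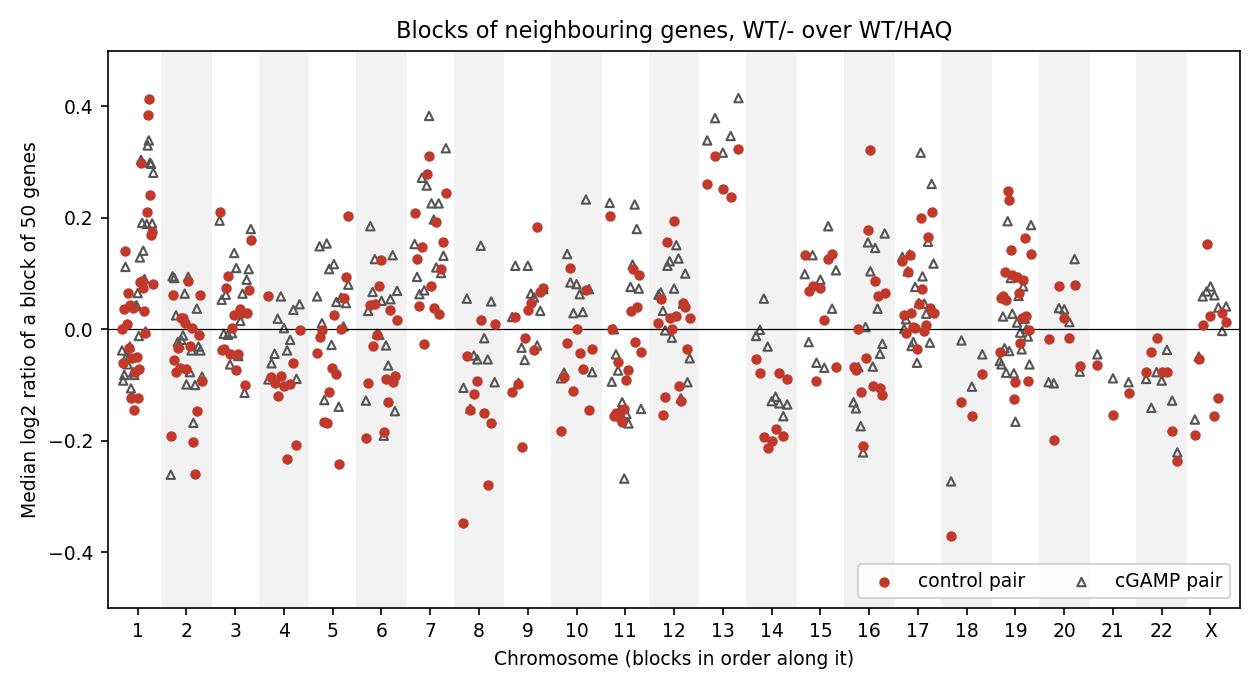
Each point is the median log2 ratio of WT/- over WT/HAQ in a block of 50 neighbouring analysed genes, by chromosome and in order along it, for the untreated (red circles) and cGAMP pair (open triangles). All 5 blocks of chromosome 13 and a run on chromosome 1 with medians up to 0.41 lie high in both pairs.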

How the data were processed

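Poly(A) RNA (TruSeq, NovaSeq, paired ends) was sequenced from 6 SKOV3 cultures, each line and treatment giving 1 library. The authors deposited 1 table of expected counts per gene. STAR, RSEM and GRCh38 are listed in the submitters' processing notes, with the versions not given in the sources used here. Handling of the control cells is not described in those sources. Expected counts were rounded, and genes averaging 10 counts or more were kept. TMM library sizes and the line test came from edgeR 4.0.16, with DESeq2 1.42.0 as an alternative. For ratios, counts under 3 were set to 3, and no ratio was given where both were at 3 or fewer. Calls, medians and ranks use these floored ratios. For a named gene with 1 or 2 counts in a library, the unfloored ratio is printed with its interval. Totals of 12444822 to 17608467 counts per library set the counting error. Positions came from GENCODE 44 (14995 of the 15126 genes) and promoters from RefSeq GRCh38.p14. Scripts were tested on simulated data.

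Named genes were STING1 and its neighbours, the 12 highest and 12 lowest protein-coding genes, the members of each list past 2-fold (the 3 furthest each way where over 6), the ends of the ISG signature and the extreme blocks. Members and lists were chosen with earlier results of these data known. The ISG and pattern recognition lists came from the study's supplement, and neither was chosen on these libraries. Alternatives were other normalisation, count filters, floors, fold limits and block sizes, leaving out libraries, and DESeq2.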

Additional observations from a re-analysis of the deposited data

Results flagged for a closer look

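Of the named genes, 3 were past 2-fold one way without treatment and past 2-fold the other way after cGAMP, each in 1 library per condition, and these differences were not tested. H19, an imprinted non-coding RNA, had 57 and 19 counts in the untreated WT/HAQ and WT/- libraries and 30 and 288 after cGAMP, with log2 ratios of -1.51 and 3.75. KRT6A had a ratio of 4.51 without treatment and -1.43 after cGAMP. TBC1D3H, a gene with near-identical copies, had 6.55 (4.04 to 9.07) and -1.98.

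A pair of gene lists had medians past 2-fold on opposite sides of the parental control in the untreated clones. Other lists had medians of opposite sign that did not both pass 2-fold. The NF-κB list had a median of 1.55 in WT/- and -1.93 in HAQ/- cells, and the interleukins and colony-stimulating factors had 1.44 and -1.55. Both clones were set against the same WT/HAQ library, and the difference between the clones was not tested.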

How the results depend on the processing

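Under other normalisations, thinning to the smallest library, other floors and other count filters, the NF-κB median stayed between 1.51 and 1.57, the ISG median between 0.38 and 0.43, STING1 between -0.96 and -0.90 and chromosome 13 between 0.24 and 0.29. The genes higher and lower without treatment numbered 1501 and 1089 at a mean count of at least 1, 391 and 299 at 50, 1963 and 1493 past 1.5-fold, and 159 and 160 past 4-fold, where more or fewer genes pass by construction. In the cGAMP pair, 1735 were higher at a mean count of at least 1, 473 were higher and 319 lower at 50, 2208 and 1496 past 1.5-fold, and 232 and 194 past 4-fold. Blocks of 25 genes had a highest median of 0.62, and blocks of 100 a lowest of -0.20. The line test called 115 higher and 132 lower without the treatment term and 1497 and 1073 without the HAQ/- line. Leaving out each library in turn gave 0 to 1544 higher and 0 to 1105 lower genes. The causes of these shifts were not tested. DESeq2 with the same design called 795 and 521. Line test log2 differences changed sign for 4 named genes. Over the fits without 1 library each, TBC1D3H ran from -1.84 (without the WT/HAQ control) to 6.30, with -1.16 without the WT/- control, TBC1D3D from -8.70 to 0.075 (without the WT/HAQ control), KRT6A from -0.98 to 4.04 and KRT6B from -2.76 to 4.62, the last 2 being negative without the WT/- control. With counts under 10 set to 10, named ratios that rest on a count under 10 shrank by construction, among them TENM4 to 2.43, CD69 to 4.22, TBC1D3H to 3.23, SERPINB3 to 2.91, CLEC4E to 2.87, SERPINB4 to 2.78, KCNK15 to -4.23, MAP6 to -3.12 and DIRAS1 to -2.81. The complement median was 0.81 at a mean count of at least 50. Of the other named gene tests, 214 kept their side of the threshold, 67 lost and 4 gained it. No paired analysis was possible because every library carries replicate number 1, beyond the pairing by treatment that the line test already holds as a term.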

Other observations

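Other lists differed between the untreated lines in a few members. Of 20 YAP and TAZ targets, 3 were at least 2-fold higher and 1 lower, and all 4 recurred after cGAMP. NUAK2, a kinase that YAP induces, had 604 normalised counts in WT/HAQ and 3670.4 in WT/- cells (log2 ratio 2.60, edgeR adjusted p = 0.011), while AMOTL2 and LATS2, which restrain YAP, had 1.33 and 1.15. Of 27 NRF2 targets, 3 were higher and 1 lower, and all 4 recurred. AKR1B10, an aldo-keto reductase, had 1 and 30 counts (4.99, 2.45 to 7.52, edgeR adjusted p = 0.037), and AKR1C2 had 469 and 169.8 normalised counts (-1.47, edgeR adjusted p = 0.0059). PTGS2, the inducible cyclooxygenase, had 27.4 and 107 normalised counts without treatment (1.97) and 103 and 1344 after cGAMP (3.71, edgeR adjusted p = 0.019).

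Among 24 immune checkpoint ligands and stress ligands of NK and T cells, 3 were higher and 1 lower, and 1 of the 3 and the 1 recurred. ULBP1, a ligand of the NK cell receptor NKG2D, had 95 and 14 counts in the untreated WT/HAQ and WT/- libraries (-2.68, edgeR adjusted p = 0.015), whereas MICB, another ligand of that receptor, had 93 and 237 (1.43, edgeR adjusted p = 0.041). LGALS9, galectin 9, had 1.42 without treatment and 0.05 in the cGAMP pair. Of 38 TGF-β and BMP pathway genes, 4 were higher and 3 lower, and 2 of the 4 and all 3 recurred after cGAMP. The lower ones were LTBP1 (-1.11), which binds latent TGF-β, the receptor BMPR1B (-1.14) and BMP6 (-1.28). Of 40 semaphorins, ephrins, netrins and their receptors, 5 were higher and 4 lower, of which 3 and 2 recurred, among them EFNA1 (1.52) and SEMA6A (-1.77). DIRAS3, an imprinted gene of a RAS relative, had 27 and 3 counts (-3.09, -4.72 to -1.46, edgeR adjusted p = 0.036), and the untreated HAQ/- library had 8.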
